A study of Mus musculus with 4 samples.

Results

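The type I interferon response was followed here through 37 mouse genes that cells switch on when interferon reaches them. The genes were taken by symbol, and a gene entered only through a probe set whose platform annotation names that gene alone. Of the 37 genes, 33 were found among 12384 genes on the array, each read from its brightest probe set on average, with no filter on dim signal. Oas1g, Ifi44, Xaf1 and Isg15 were not analysed here, the last because its probe set is annotated with more than 1 gene. Signal is given as log2 intensity, on which a step of 1 is a doubling.

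The cells were hair follicle stem cells of back skin, taken from female CD1/C57BL/6 mice at about postnatal day 60, sorted for CD34, integrin α6 and the fluorescent reporter YFP, which together mark the bulge, where the follicle keeps its stem cells. WT mice were compared with conditional knockouts (cKO) of Tbx1, a T-box transcription factor gene, with 2 arrays in each group. Each genotype has 1 array in set 1 and 1 in set 2. The treatment label gives all 4 samples a wax depilation 48 h before harvest, which starts hair regrowth, whereas another label calls set 1 quiescent and set 2 activated. The sets are named by number for that reason. The sources used here do not name the driver of the Tbx1 deletion, nor do they say that the samples of a group are separate animals. The spread behind each p-value is thus that of these samples and may be technical. Where genotypes are compared without pairing, the 2 arrays of a genotype come from different sets. That spread then also holds any difference between the sets. Likewise, the spread in an unpaired comparison of sets holds any difference between genotypes. For 1 gene alone, 2 arrays against 2 allow an exact permutation p no lower than 0.333, so precision is limited by how few arrays there are.

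Type I interferons bind the receptor of Ifnar1 and Ifnar2. The kinases Jak1 and Tyk2 then activate STAT2, which acts with IRF9 in the complex ISGF3 on a DNA element named the interferon-stimulated response element. The genes behind it encode sensors of viral nucleic acid, enzymes that degrade viral RNA, proteins that block entry and budding, and feedback regulators. In epithelium some of these genes are also kept at a low level without infection.

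Promoters of 25 of the 33 genes are held in the RefSeq table (build GRCm38.p6). The element was searched as 2 GAAA half-sites separated by any 2 bases, on both strands, in the 250 bases before the start. It was present for 9 of the 25 genes (36.0%) and for 3.46% of the 27025 genes with a promoter in that table. The 160 bases before the start are shown for Oas1a and Ifit1, which were at least 2-fold higher in cKO within both sets and hold the element, and for Ifit3 and Oas3, which hold it and were less than 1.5-fold apart in both sets. Capitals mark the element, read 5′ to 3′ on the strand of the gene. The first lies on the minus strand at chr5:120907526-120907685 and holds 2 overlapping copies.
Oas1a: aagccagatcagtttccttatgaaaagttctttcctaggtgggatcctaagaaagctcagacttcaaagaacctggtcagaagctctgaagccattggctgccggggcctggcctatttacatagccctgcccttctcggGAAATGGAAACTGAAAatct
Ifit1 lies on the plus strand at chr19:34640729-34640888 and holds 2 copies on the opposite strand of the gene.
Ifit1: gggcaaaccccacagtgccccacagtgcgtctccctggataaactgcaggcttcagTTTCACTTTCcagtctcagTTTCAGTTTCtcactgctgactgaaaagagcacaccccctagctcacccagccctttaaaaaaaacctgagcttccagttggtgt
Ifit3 lies on the plus strand at chr19:34583369-34583528, also with 2 copies on the opposite strand.
Ifit3: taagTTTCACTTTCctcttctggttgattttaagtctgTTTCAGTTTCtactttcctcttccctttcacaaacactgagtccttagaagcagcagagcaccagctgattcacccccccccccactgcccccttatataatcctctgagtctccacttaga
Oas3 lies on the minus strand at chr5:120777660-120777819 and holds 1 copy.
Oas3: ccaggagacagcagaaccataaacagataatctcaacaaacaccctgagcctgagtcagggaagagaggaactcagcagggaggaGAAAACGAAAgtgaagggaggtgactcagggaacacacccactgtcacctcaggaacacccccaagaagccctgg
The element was found on both sides of the 1.5-fold limit. Of the 12 genes at least 1.5-fold higher in cKO within both sets, 8 had a promoter in the table and 3 of these held the element. Of the other 21 genes, 17 had a promoter and 6 of these held it. A match is a string of letters and no evidence of binding, and Ifit3 and Oas3 were dim on all 4 arrays, where array signal can understate a difference.

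The sorted cells carried bulge markers at high signal. Krt15, the bulge keratin, read 13.39 to 13.94 on the 4 arrays, Cd34 read 8.85 to 9.46 and Lhx2, a bulge transcription factor gene, read 10.92 to 11.44. Tbx1 read 9.54 and 8.88 on the cKO arrays of set 1 and set 2 and 10.53 and 10.37 on the WT arrays. In a bulk sample, fewer cells of a type and less RNA per cell cannot be told apart. Markers of immune cells, which respond to and make interferon, were read beside them. Of 12 leukocyte markers, 10 lay on all 4 arrays below a log2 intensity of 5.40, percentile 40 of all probe sets, called the dim limit here. These include Ptprc (CD45), at 3.62 to 4.07. The summed linear signal of the 12 was 663 and 833 in cKO and 917 and 771 in WT. Much of that sum came from 1 gene, Arhgdib, which read 8.62 and 9.17 in cKO, against 9.36 and 9.08 in WT. Of the 12, 5 were higher in cKO within both sets (38.9% of all genes). The 16 markers of macrophages and Langerhans cells, 12 of them below the limit on all arrays, summed to 610 and 535 in cKO and 679 and 459 in WT. Of these 16, 9 were higher in cKO within both sets (38.9% of all genes) and 1, Cd14, was lower (22.9%). Cd14 read 5.42 and 5.23 in cKO, against 7.13 and 6.38 in WT. The 9 markers of T and NK cells summed to 555 and 420 in cKO and 323 and 235 in WT. Of these, 8 were below the limit on all arrays, Cd3e among them, and the remaining one, Thy1, which other cells also make, read 8.61 and 7.93 in cKO, against 7.24 and 6.38 in WT. Of 6 markers of plasmacytoid dendritic cells, which make much interferon, Spib, Irf8 and Klk1 were below the limit on all arrays. The 6 summed to 3700 and 4889 in cKO and 3247 and 1729 in WT, carried by Ly6d, which keratinocytes also make, and by Tcf4, also on the list of bulge markers. All 6 mast cell markers were below the limit. Markers of endothelium, by contrast, were lower in cKO within both sets for 15 of 15 genes (22.9% of all genes). Their summed signal was 387 and 393 in cKO and 2967 and 2833 in WT. Markers of differentiating keratinocytes summed to 22243 and 24965 in cKO and 20326 and 6943 in WT, lowest on the WT array of set 2. What these cell types contributed to the interferon genes was not tested.

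Most interferon genes read higher in the cKO cells, and for most of them the cKO array of set 1 was the highest of the 4. Both cKO arrays lay above both WT arrays for 25 of the 33 genes, against 28.9% of all genes. Within both sets 28 genes were higher in cKO (38.9% of all genes), and 2, Ifit2 and Cmpk2, were lower in both (22.9% of all genes). The cKO value was at least 1.5-fold higher within both sets for 12 genes, where 2.2% of all genes were, and at least 2-fold higher for 7, where 0.525% were. No gene of the 33 was 1.5-fold lower in both (1.32% of all genes). The median difference, cKO minus WT, was 0.82 over the 33 genes and 0.05 over all genes. It was 0.97 in set 1 and 0.42 in set 2, where the medians of all genes were 0.04 and 0.07. With values raised to the dim limit described above the median over both sets was 0.53, and over the 46 probe sets of the 33 genes, each on its own, 0.51. In set 1 alone the 1.5-fold limit was passed upwards in cKO by 22 of the 33 genes (4.86% of all genes), and in set 2 by 13 (7.15%).

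None of these genes passed limma's test between genotypes over all 12384 genes, in which 8 genes, or 0.0646%, had an adjusted p under 0.05. The lowest limma adjusted p among the 33 was 0.204, for Ifitm3. At an unadjusted p under 0.05, 15 were higher in cKO, against 7.71% of all genes, and 1, Ifit2, was lower. That count depended on the dim readings and on single arrays. With all values raised to the dim limit 1 gene, Ifitm3, was higher at that p (4.94% of all genes), and with 16 added to each linear value 5 were (7.29%). Without the WT array of set 2, 4 were higher (5.18%), and without that of set 1, 9 (10.6%). Read as paired by their set number, the arrays gave 4 called genes in all and still none of the 33. When genes with a mean below the dim limit were also left out, a combination chosen with its result known, 5 interferon genes were called, beside 1.03% of the 8031 genes tested. Nothing is read from that share, because the filter uses the mean of all arrays and can keep a gene through its cKO values alone. Of the 22 interferon genes kept, Oasl2, Usp18, Ifit1 and Irf7 had both WT arrays below the limit. The genes called were Oasl2 and Oas1a (limma adjusted p = 0.0239 for both), Ifi35 (0.0274), Rtp4 (0.0285) and Irf9 (0.0424), all higher in cKO. Of these 5, Oas1a, Ifi35 and Irf9 were above the limit on all 4 arrays. That model has 1 residual degree of freedom.

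**Figure D1:**
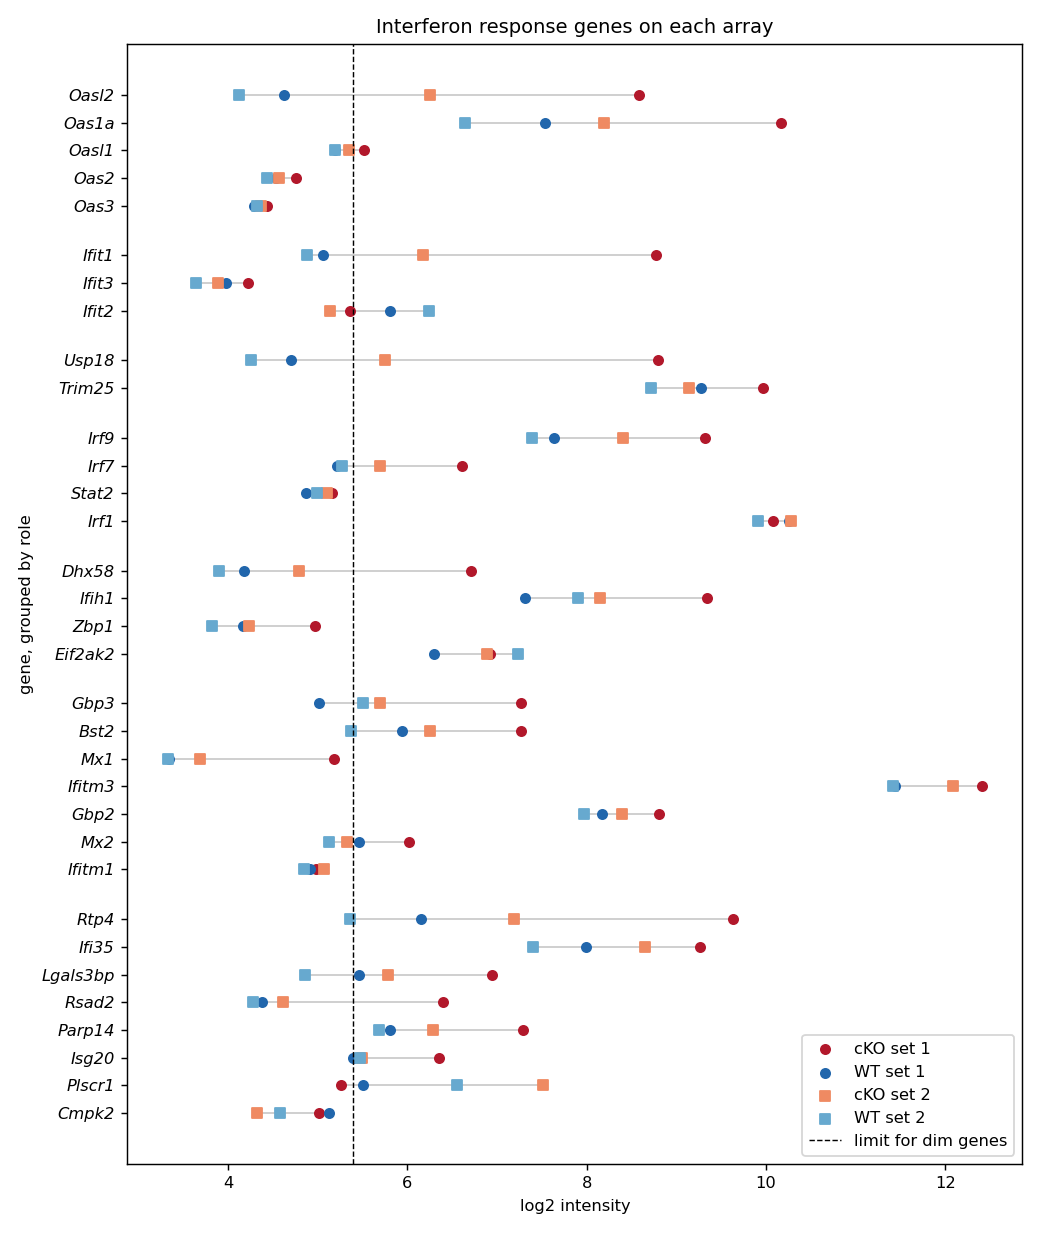
Log2 intensity (x axis) of the 33 interferon response genes on each of the 4 arrays, grouped by role (y axis). Points are single arrays, the grey line spans them, and the dashed line marks the dim limit at 5.40. The cKO array of set 1 is the highest of the 4 for 27 genes, and the WT array of set 2 is the lowest for 22.

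The 2′-5′ oligoadenylate synthetases make the second messenger that activates RNase L, which cuts viral RNA, and their relatives Oasl1 and Oasl2 carry a ubiquitin-like end. Oas1a (probe set 1424775_at) read 10.17 and 8.20 on the cKO arrays of set 1 and set 2 and 7.54 and 6.65 on the WT arrays. The groups did not overlap, and the mean difference was 2.09 (SE 0.69, limma adjusted p = 0.341). Oasl2 (1453196_a_at) read 8.58 and 6.25 in cKO, against 4.63 and 4.12 in WT. It was clearly above the dim limit only on the cKO arrays, and differed by 3.04 (SE 0.76, limma adjusted p = 0.260), 15.5-fold in set 1 and 4.38-fold in set 2. Set against the dim limit in place of its WT readings, Oasl2 differed by 3.18 in set 1 and 0.85 in set 2. All 5 genes of the family measured were higher in cKO within both sets, but the other 3 differed little. Oasl1 differed by 0.33 and 0.16 in set 1 and set 2, Oas2 by 0.22 and 0.13 and Oas3 by 0.14 and 0.05. Oas2 and Oas3 were below the dim limit on all 4 arrays. The Oas1 genes are close copies of one another, so a probe set may also read a relative.

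The IFIT proteins bind foreign RNA ends and block its translation, and their genes lie side by side in the genome. The 3 genes measured were not alike. Ifit1 (1450783_at) read 8.78 and 6.17 in cKO, against 5.06 and 4.88 in WT. Its WT readings were below the dim limit, and it differed by 2.50 (SE 0.83, limma adjusted p = 0.342), or 3.71 in set 1 and 1.29 in set 2. With WT at the dim limit these differences were 3.38 and 0.77. Ifit2 had the opposite sign. It read 5.36 and 5.13 in cKO, against 5.81 and 6.24 in WT, again without overlap, and differed by -0.78 (SE 0.19, limma adjusted p = 0.260). Its cKO readings were below the dim limit. With cKO at that limit Ifit2 differed by -0.41 in set 1 and -0.84 in set 2. Ifit3 stayed between 3.64 and 4.23 on the 4 arrays, all below the dim limit.

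Usp18 removes the ubiquitin-like protein ISG15 from its targets and also shuts off the interferon receptor. Usp18 (1418191_at) read 8.80 and 5.75 in cKO, against 4.71 and 4.25 in WT. The difference was 17.0-fold in set 1 and 2.82-fold in set 2, and the cKO array of set 2 lay closer to both WT arrays than to the cKO array of set 1. With WT at the dim limit Usp18 differed by 3.40 and 0.35 on the log2 scale. The mean difference of 2.79 (SE 0.97) had a limma adjusted p of 0.357. Trim25, a ubiquitin ligase that activates the sensor RIG-I, read 9.96 and 9.14 in cKO, against 9.27 and 8.72 in WT. Its groups overlapped, and its other 2 probe sets differed by 0.50 and 0.79 where the chosen one differed by 0.56.

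Of the 4 transcription factor genes, Irf9 had the largest difference. Irf9 (1421322_a_at), the DNA-binding part of ISGF3, read 9.32 and 8.41 in cKO, against 7.63 and 7.39 in WT, and differed by 1.36 (SE 0.32, limma adjusted p = 0.252). All 4 readings were above the dim limit. Irf7, the factor that amplifies interferon production, read 6.61 and 5.70 in cKO, against 5.21 and 5.28 in WT, so that its cKO arrays were above the dim limit and its WT arrays below. Stat2 read 4.87 to 5.16 on all arrays, under the dim limit. Irf1, which answers to interferon-γ and to stress as well, read 10.08 and 10.28 in cKO, against 10.25 and 9.91 in WT, with overlapping groups and a difference of 0.10 (SE 0.17, limma adjusted p = 0.854).

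Of the 4 sensor genes, 3 were highest on the cKO array of set 1, and Eif2ak2 was highest on the WT array of set 2. Ifih1 (MDA5) read 9.34 there and 8.15 on the cKO array of set 2, against 7.31 and 7.91 in WT, so its difference was 2.03 in set 1 and 0.24 in set 2. Dhx58 (LGP2), a helper of MDA5, read 6.72 and 4.79 in cKO, against 4.18 and 3.89 in WT. Its other 2 probe sets differed by 0.46 and -0.02 on average, where the chosen one differed by 1.72. That probe set was above the dim limit on the cKO array of set 1 alone, and with values raised to the limit it differed by 0.66. Zbp1, a sensor of Z-form nucleic acid, stayed under the dim limit. Eif2ak2 (PKR), the kinase that stops translation on double-stranded RNA, read 6.93 and 6.89 in cKO, against 6.30 and 7.23 in WT, with overlapping groups.

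All 7 genes of membrane restriction factors and GTPases were higher in cKO within both sets, 2 of them, Bst2 and Ifitm3, at least 1.5-fold. Ifitm3, which blocks fusion of viruses in endosomes, read 12.41 and 12.08 in cKO, against 11.43 and 11.42 in WT. The WT arrays were nearly equal, and the difference of 0.82 (SE 0.16) had the limma adjusted p of 0.204 given above. Bst2 (tetherin), which holds budding virus at the cell surface, read 7.27 and 6.25 in cKO, against 5.94 and 5.38 in WT. The guanylate-binding protein gene Gbp2 differed by 0.63 and 0.43 in set 1 and set 2, and a second probe set by 0.51 and 0.68. Gbp3 differed by 2.26 and 0.18, and the dynamin-like GTPase gene Mx1 by 1.84 and 0.36, with Mx1 under the dim limit throughout. Mx2 and Ifitm1 differed by less than 1.5-fold in both sets.

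Of the 8 remaining effector genes, 6 were higher in cKO within both sets and 4 at least 1.5-fold. Rtp4 and Ifi35 differed at least 2-fold in both sets. Rtp4 (1418580_at), a chaperone-like protein of receptor transport with antiviral activity, read 9.63 and 7.18 in cKO, against 6.15 and 5.36 in WT. It differed by 2.65 (SE 0.81, limma adjusted p = 0.326), while a second Rtp4 probe set, dim on all arrays, differed by 0.16. Ifi35 (1424617_at), a partner of Nmi, read 9.27 and 8.65 in cKO, against 7.99 and 7.40 in WT. Its differences of 1.28 and 1.25 were the same size in both sets, and the mean of 1.26 (SE 0.29) had a limma adjusted p of 0.252. Lgals3bp, a secreted galectin ligand, differed by 1.49 and 0.93 and Parp14, a mono-ADP-ribosyltransferase, by 1.48 and 0.60. Rsad2 (viperin), which makes a chain-terminating nucleotide, differed by 2.02 and 0.33. It was above the dim limit on the cKO array of set 1 alone, so with values raised to the limit it differed by 1.01 in set 1 and had no difference in set 2, and its other 2 probe sets by 1.39 and 0.62 and by 0.35 and 0.20. The exonuclease gene Isg20 differed by 0.96 and 0.02. Cmpk2, a mitochondrial nucleotide kinase gene next to Rsad2, did not share its difference and read 5.02 and 4.32 in cKO, against 5.13 and 4.58 in WT, all below the dim limit.

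**Figure D2:**
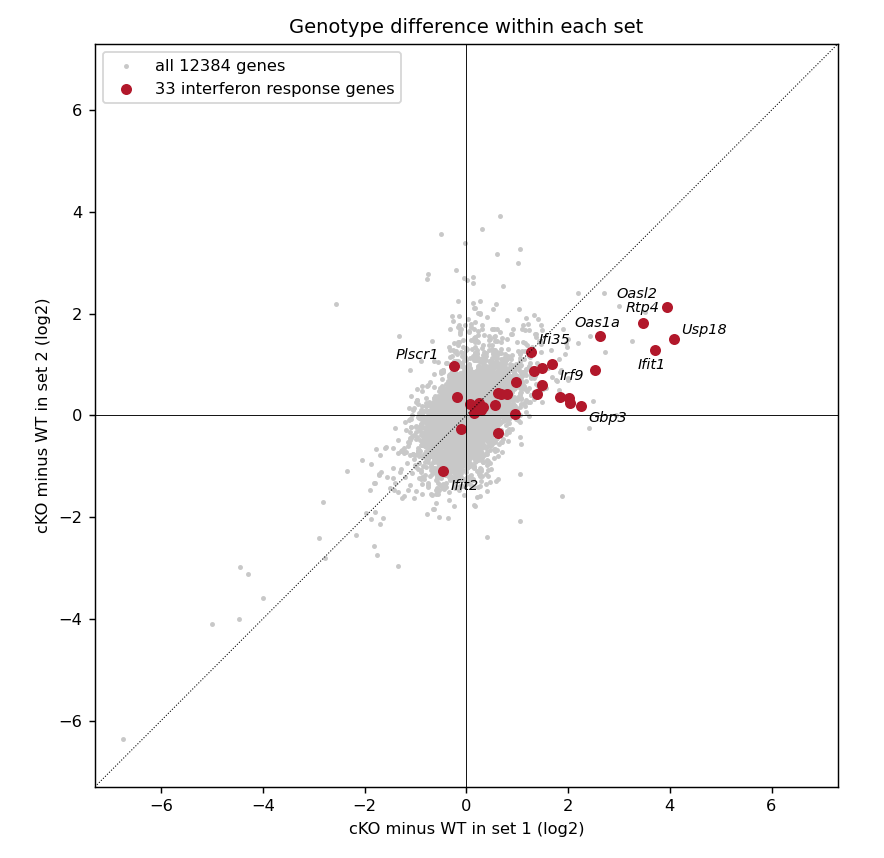
Genotype difference, cKO minus WT on the log2 scale, in set 1 (x axis) and set 2 (y axis). Grey points are all 12384 genes, red points the 33 interferon response genes, and the dotted line marks equal differences. Oasl2, Rtp4, Usp18 and Ifit1 lie well below the line, and 30 of the 33 genes lie below it.

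The size of these differences rested on the cKO array of set 1. That array was the highest of the 4 for 27 of the 33 genes, against 32.4% of all genes. The WT array of set 2 was the lowest for 22, against 40.1%. The full order, cKO set 1 above cKO set 2 above WT set 1 above WT set 2, held for 17 genes (10.8% of all genes). Without the cKO array of set 1 the median difference was 0.35, and the cKO array of set 2 still lay above both WT arrays for 27 of the 33 genes (40.6% of all genes). Between cKO set 2 and WT set 1 alone, which also differ in set, the median was 0.33.

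Both of these arrays also stood apart in quality values. The 3′ minus 5′ log2 difference of the added control DapX was 2.95 on the cKO array of set 1 and 1.74 to 1.82 on the other 3, and that of ThrX was 2.79 against 1.70 to 1.80. On the WT array of set 2 the nuclear RNA Malat1 read 12.35, against 9.80 to 10.56 on the others. What these differences between arrays contributed to the interferon genes was not tested.

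The set comparison uses the same 4 arrays regrouped, so it is not independent of the genotype comparison. Over both genotypes the median, set 2 minus set 1, was -0.54 for the interferon genes and -0.04 for all genes. No gene of the array, or 0%, passed limma's test at an adjusted p under 0.05 between sets. At an unadjusted p under 0.05, 2 of the 33 did, Plscr1 and Cmpk2, against 3.01% of all genes. With genotype as the paired term, 13 did, 12 of them lower in set 2 (6.83% of all genes in either direction), and again none had an adjusted p under 0.05. Of single arrays left out, the WT array of set 1 gave 19 (2.42%), the cKO array of set 1 gave 4 (1.55%) and the cKO array of set 2 gave 1 (8.79%). Within cKO the median was -0.82, and 21 of the 33 genes were at least 1.5-fold lower in set 2 (2.38% of all genes). Within WT the median was -0.19, and 4 were (4.2%). Usp18 differed between sets by -3.05 in cKO and -0.46 in WT, and Ifit1 by -2.61 and -0.19. With the cKO array of set 1 left out, both arrays of set 2 against the WT array of set 1 gave a median of 0.078.

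Plscr1, a phospholipid scramblase gene, ran the other way. It read 7.52 and 6.55 on the cKO and WT arrays of set 2 and 5.27 and 5.51 on those of set 1, so the sets did not overlap. The difference between sets was 1.65 (SE 0.35, limma adjusted p = 1), and a second probe set differed by 2.19 in cKO and 1.41 in WT. It was the 1 gene of the 33 at least 1.5-fold higher in set 2 in cKO (1.67% of all genes). In WT, 3 genes were (4.99%).

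**Figure D3:**
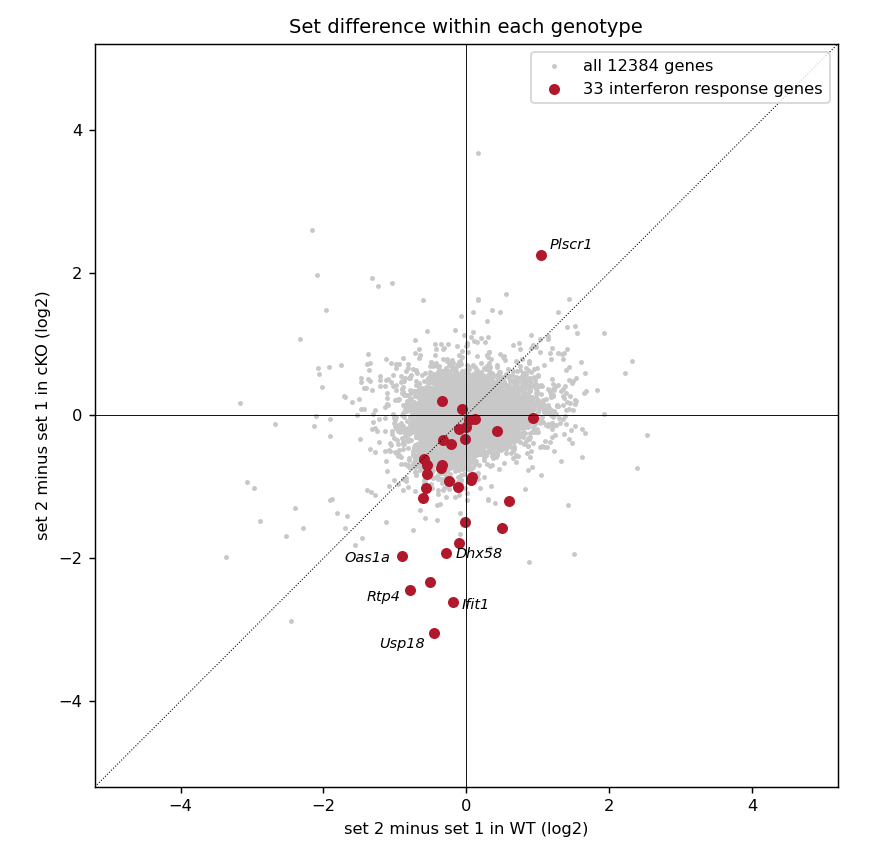
Set difference, set 2 minus set 1 on the log2 scale, in WT (x axis) and cKO (y axis), for all 12384 genes (grey) and the 33 interferon response genes (red). The dotted line marks equal differences. Most red points lie below 0 on the y axis and near 0 on the x axis, and Plscr1 is the red point highest on both axes.

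Genes upstream of the response differed less between genotypes. All 10 interferon ligand genes found, of 21 listed, lay below the dim limit on all 4 arrays, and Ifnb1, picked as the first interferon most cells make, read 3.51 to 3.56. The receptors were measured above it. Ifnar2 read 8.55 and 8.61 in cKO, against 8.51 and 8.58 in WT, and Ifnar1 read 7.09 and 7.41 in cKO, against 7.42 and 7.35 in WT. The kinase gene Jak1 read 9.88 and 10.06 in cKO, against 9.82 and 10.05 in WT, and Tyk2 differed by 0.18 and 0.21. Jak2, used by the interferon-γ receptor, differed by 0.28 and -0.27, and Stat3, which other cytokines also use, by 0.34 and 0.65. Of the interferon-γ receptor genes, Ifngr2 had a difference of -0.88 in set 1 and 0.58 in set 2, and Ifngr1 of 0.15 and 0.67. Il10rb, a chain of the interferon-λ receptor, differed by 0.26 and 0.14. Of 21 genes of nucleic acid sensing, none was at least 1.5-fold higher in cKO in both sets (2.2% of all genes), and the median in set 1 was 0.13. In this list the helicase gene Dhx9 differed by -0.53 and -0.55 and the editing enzyme gene Adar, itself interferon-induced, by 0.74 and 0.46. The helicase gene Dhx36 differed by -0.56 and -0.89, and Sting1, the adaptor for cytosolic DNA, by -0.48 and -0.42. Among 13 negative regulators, the feedback inhibitor gene Socs3 differed by 0.43 and 0.24 and Foxo3, a repressor of Irf7, by 1.04 and 0.89. Irf2, a repressor of interferon target genes, differed by 0.63 and 0.74.

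In set 1, target genes outside the 33 had smaller medians than the 33 genes, which had 0.97. In set 2 the 33 genes had 0.42, and the interferon-γ list had 0.41 and the inflammation list 0.46. All lists were chosen with earlier results of these data known, so differences between their medians are not independent evidence. Of 64 other interferon-stimulated genes found, 36 were higher in cKO in both sets (38.9% of all genes) and 8 at least 1.5-fold (2.2%). Their median was 0.27 in set 1 and 0.18 in set 2, and 22 of them lay below the dim limit on all 4 arrays. The cKO array of set 1 was the highest for 35 of the 64 (32.4% of all genes). Parp9, which works with the ubiquitin ligase Dtx3l, differed by 1.79 and 0.68, and Trim34a by 2.94 in set 1, whereas in set 2 it read 5.88 in cKO and 5.89 in WT. Ddx60 differed by 1.69 and 0.76 and Ifi27l2a by 1.96 and 0.38. Of 28 genes typical of interferon-γ, 5 were at least 1.5-fold higher in both sets (2.2% of all genes). Their median was 0.11 in set 1 and 0.41 in set 2, and 10 of them lay below the dim limit on all 4 arrays. The immunity GTPase gene Irgm1 differed by 1.66 and 1.28 and the immunoproteasome subunit gene Psmb8 by 0.92 and 1.69, while the GTPase genes Gbp7 and Igtp differed by 1.83 and 0.49 and by 1.56 and 0.54. The chemokine gene Cxcl9, picked after its values were seen, had the opposite sign, at -0.58 and -0.61. A list of 15 inflammation genes outside the pathway had medians of 0.04 and 0.46 and none was 1.5-fold higher in both sets (2.2% of all genes). In it the cytokine gene Il6 differed by -4.44 and -2.99. No gene of the 7 pathway lists passed limma's test between genotypes (lowest adjusted p = 0.130).

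**Figure D4:**
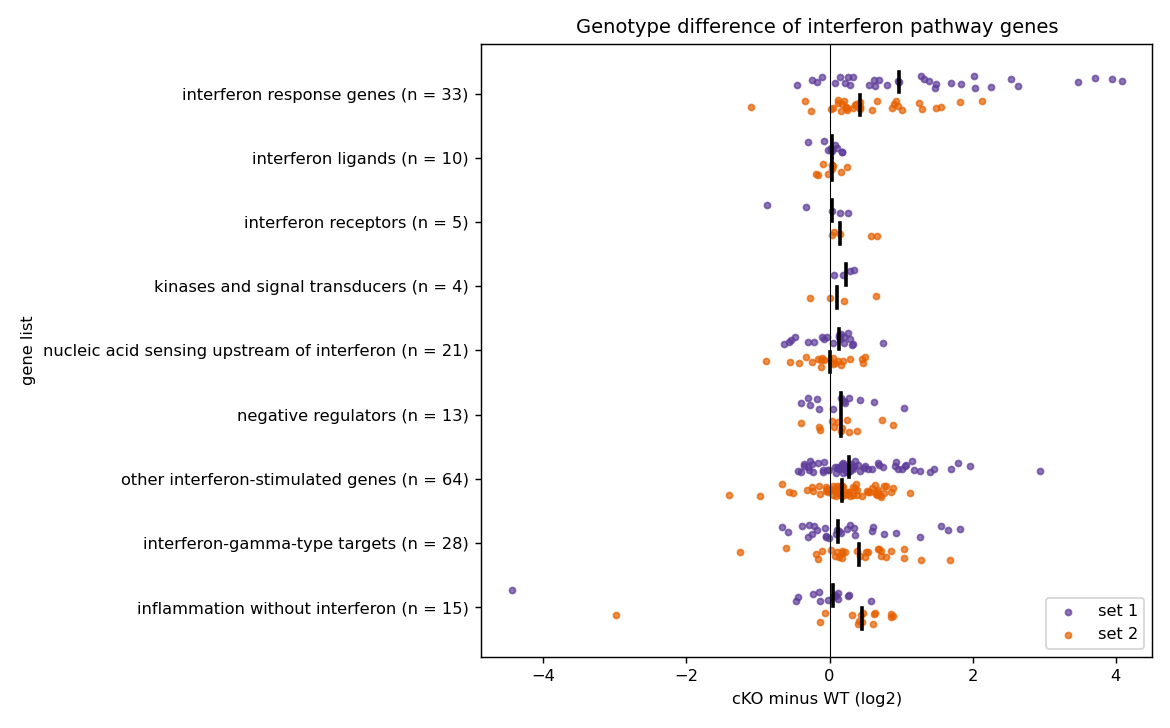
Genotype difference, cKO minus WT on the log2 scale (x axis), of each gene in set 1 (purple) and set 2 (orange), by gene list (y axis). Black bars are medians. The 33 interferon response genes have the medians 0.97 and 0.42, and those of ligands, receptors and kinases lie between 0.03 and 0.23. The interferon-γ list has 0.11 and 0.41, and the inflammation list 0.04 and 0.46.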

How the data were processed

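RNA from 4 sorted samples was hybridised to Affymetrix mouse expression arrays, 1 per sample. The authors deposited linear intensity values summarised with RMA, per the submitters' processing notes; the sources used here do not give its settings. The 22690 probe sets included 20380 annotated with 1 gene symbol, 691 with several, 1555 with none and 64 controls. Intensities were taken to log2 with no further scaling, 1 probe set per gene (highest mean), leaving 12384 genes. Genotype and set were each tested in R 4.3.3 by linear models with moderated variances (limma 3.58.1, Benjamini-Hochberg adjusted p under 0.05 over all genes). The genotype fit was also run on simulated data. There, recovery was required only of differences larger than any among the 33 genes. Xist and Y-linked genes were left out. The 33 genes and all other lists were chosen with earlier results of these data known, so they are not independent evidence. Values on every array were to be given for genes that differed at least 2-fold the same way in both sets, had the highest mean of their role group, differed 1.5-fold in opposite directions in the sets, or were lower in cKO in both. For other lists, up to 4 genes with the largest mean difference were named, plus all receptors and kinases. Readings of Irf7, Stat2, Dhx58, Eif2ak2, Bst2 and Plscr1 on every array were added after their values were seen. The set number was read as a pairing because the descriptions assign 1 state to each set; across 12384 genes, which are not independent replicates, deviations of the arrays of a set correlated at r = 0.159. Alternatives changed the filter on dim genes, the probe set per gene, the floor, the model and the arrays included. Promoters came from RefSeq, build GRCm38.p6.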

Additional observations from a re-analysis of the deposited data

Results flagged for a closer look

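Some genes had opposite signs in the compared strata, and none of these differences between differences was tested. Each value is the genotype difference (cKO minus WT) in set 2 minus that in set 1, on the log2 scale. Opposite signs of the genotype difference in the sets gave Irf1 at 0.55, Eif2ak2 at -0.97 and Plscr1 at 1.21. Opposite signs of the set difference in the genotypes gave Irf1 and Eif2ak2 again, with Ifih1 at -1.79, Gbp3 at -2.08, Irf7 at -0.97, Isg20 at -0.93, Ifit2 at -0.65, Stat2 at -0.18, Ifitm1 at 0.15 and Oas3 at -0.094. Stat2, Ifitm1 and Oas3 were below the dim limit on all 4 arrays.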

How the results depend on the processing

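Without each array in turn, the median genotype difference of the 33 genes ranged from 0.35 to 0.98, and it was 0.33 between cKO set 2 and WT set 1 alone. Values raised to the dim limit gave 0.53, and single probe sets 0.51. The median set difference ranged from -1.03 to 0.078 without single arrays, in fits where genotype is mixed into the set difference. It was positive only without the cKO array of set 1, and it was -0.19 within WT alone. With values raised to the dim limit it was -0.34. With the replicate block alone, 0 of the 33 genes were called by limma, as in the fit without it. In the fit without it, 16 had an unadjusted limma p under 0.05 in either direction, as did 1578 of all 12384 genes. That count was 1 with values raised to the dim limit, where 1084 of all genes passed. It was 6 with 16 added to each linear value, where 1570 of all genes did. With the block and dim genes left out, added after seeing the data, 5 were called, of which Oasl2 passed the filter only through its cKO arrays. The count of genes at least 1.5-fold higher in both sets was 7 at 2-fold (0.525% of all genes). It was 4 with genes under percentile 60 left out, which leaves 8 genes. The count with both cKO arrays above both WT arrays was 16 with genes under percentile 40 left out (22 genes), 6 with percentile 60 and 16 with values floored at the dim limit. With genes left out or values floored, the shares of all genes were not counted, so nothing is read from those counts. Without each array in turn, the count with both cKO arrays above both WT arrays ranged from 26 to 29. That range was also added after seeing the data. Leaving out an array can only keep or raise that count, so nothing is read from this range. Without single arrays the genotype difference changed sign for 4 of the 33 genes: Irf1 (-0.074 to 0.27), Cmpk2 (-0.53 to 0.17), Eif2ak2 (-0.32 to 0.61) and Plscr1 (-0.77 to 1.48). The causes were not tested beyond the smaller number of genes or arrays. Dim signal limits 8 genes on all arrays and the WT side of 7 more.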
